A study of Mus musculus with 5 samples.

Results

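The genes described here are the netrins, the Slits and their receptors: *Ntn1*, *Ntn4*, *Slit2* and *Slit3* among the ligands, *Unc5b*, *Unc5c*, *Neo1*, *Robo1* and *Robo2* among the receptors, and *Srgap1*, whose protein acts below Robo. They were picked by symbol, without a threshold on their values, but with earlier results of these data known. All 10 were among the 21835 genes of the expression table. The cells were cancer-associated fibroblasts (CAFs), the fibroblasts of the tumour stroma, taken from mouse lung and kept in culture. CAF-vec (2 samples) stood for the control, labelled wild type, with the empty vector, and CAF-200 (3 samples) overexpressed miR-200b, miR-200a and miR-429, which form 1 genomic cluster, from an integrated lentiviral vector. Cells that had taken up the vector were selected with G418 per the labels, whereas the study's methods name a hygromycin vector introduced into fibroblasts called LFs. The methods also speak of RNA in triplicate from each group, and 2 CAF-vec samples were analysed here. The labels name 1 line of CAFs, give neither age nor sex of its donor mice, and do not say whether CAF-200 was grown from a clone. Nothing in the labels says that the samples came from separate cultures, so the *p* values below measure the spread between these samples, which may be technical.

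Netrins are secreted proteins related to the laminins, and they guide growing axons, endothelial cells and branching epithelium. Neogenin (the product of *Neo1*) and DCC mediate mostly attraction to netrin-1, and the UNC5 receptors mediate repulsion. Slits are large secreted proteins with leucine-rich repeats that bind the Robo receptors and repel neurons, while in vessels and connective tissue they also act on endothelial cells, and fibroblasts of several organs are known to make them. The srGAP proteins bind the cytoplasmic tail of Robo and act on the actin cytoskeleton.

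Because the overexpressed agent was a cluster of microRNAs, the mature strands are shown first, from RefSeq (GRCm38.p6), with the seed (bases 2 to 8) in capitals. MiR-200b and miR-429 share a seed, and that of miR-200a differs from it.
mmu-miR-200b-3p (chr4:156055685-156055706, minus strand): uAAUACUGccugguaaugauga
mmu-miR-429-3p (chr4:156053916-156053937, minus strand): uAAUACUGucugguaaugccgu
mmu-miR-200a-3p (chr4:156054911-156054932, minus strand): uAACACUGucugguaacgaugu

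A match to the whole seed (CAGTATT for miR-200b and miR-429, CAGTGTT for miR-200a, on the transcribed strand) was sought in the longest annotated 3′-UTR of each gene in GENCODE M21 (GRCm38). Such a match was present in 6 of the 10 genes, *Ntn1*, *Slit2*, *Neo1*, *Srgap1*, *Unc5c* and *Robo2*, and not in *Slit3*, *Ntn4*, *Unc5b* and *Robo1*. Of the 12055 genes tested that have a 3′-UTR, 30.3% held one, but these have a median 3′-UTR of 1174 bases, and most of the 10 genes have a longer one. Among genes with a 3′-UTR within 25% of the length of each of the 10, the share with a match ran from 7.81% (*Slit3*) to 77.1% (*Unc5c*) and was over 50% for *Ntn1*, *Slit2*, *Neo1*, *Srgap1*, *Robo2* and *Unc5b* also, so a match is common in 3′-UTRs of these lengths. The 4 matches below, in capitals within 23 bases of the transcript, are those of the genes on which the results turn and of *Neo1*, whose level overlapped between the groups.
*Ntn1*, miR-200a match (chr11:68209581-68209603, minus strand): acatattgtttgggcCAGTGTTc
*Slit2*, first miR-200b and miR-429 match (chr5:48304855-48304877, plus strand): ttagctaccagtttcCAGTATTa
*Slit2*, second miR-200b and miR-429 match (chr5:48304977-48304999, plus strand): ctaaatatccctataCAGTATTc
*Neo1*, miR-200b and miR-429 match (chr9:58876504-58876526, minus strand): ctttctgtgcagattCAGTATTg

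The values were CPM, read counts that the authors scaled to nearly the same total in every sample, so sequencing depth is not known. Zeros in CAF-200 were shared by all 3 samples for every gene that had one, and many low values were not whole multiples of a common step, so values near 0 may have been adjusted further and cannot be read as a number of reads. They were compared on log2(CPM + 0.5) with limma, with Benjamini-Hochberg adjustment over the 12175 genes that reached 0.5 CPM in at least 2 samples. A gene is called lower or higher at a log2 fold-change beyond 1 and an adjusted *p* under 0.01. The added 0.5 CPM understates the change of weakly expressed genes. Over all genes tested, the log2 difference between the 2 CAF-vec samples had an SD of 0.49, and that between any 2 CAF-200 samples an SD of 0.192 to 0.204. *Zeb1*, a long-known target of miR-200 encoding a repressor of epithelial genes, was at 43.5 and 50.7 CPM in CAF-vec, against 37.8, 37.5 and 34.1 CPM in CAF-200 (limma log2 fold-change -0.36 with an adjusted *p* of 0.0504), which did not pass the test. Nor did *Zeb2*, a related target, at 46.2 and 29.8 CPM in CAF-vec, against 31.1 to 31.9 CPM in CAF-200 (limma log2 fold-change -0.23 with an adjusted *p* of 0.374), where the groups overlapped and the sign was reversed without CAF-vec 1 (0.08). All 8 epithelial markers were under 0.5 CPM in every sample, and 9 of 10 fibroblast markers were expressed highly enough to be tested. *Fap*, encoding fibroblast activation protein, was at most 0.391 CPM.

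Of the 10 genes, 8 reached a level at which they could be tested, and *Slit3* and *Ntn1*, both ligands, fell in CAF-200. In bulk RNA, fewer cells of a type and less RNA per cell cannot be told apart. None of the 8 was called higher (limma), although 3 (*Robo1*, *Ntn4* and *Unc5b*) had positive fold-changes at an unadjusted *p* under 0.05, and 3 (*Slit3*, *Ntn1* and *Slit2*) had negative ones. That cut was passed by 5469 of the 12175 genes, so passing it was common. The 2 lower calls stand beside a background of 2.35% of all genes tested called lower and 2.37% called higher. An adjusted *p* under 0.05 was reached by 3 of the 8 genes with a lower level and 3 with a higher one, against 18.6% and 11.9% of all genes tested. The 3 higher genes include *Robo1*, which reached 0.5 CPM in CAF-200 alone and so could appear only as higher. For 4 of the 8 genes every CAF-200 sample was under both controls, and for 3 every one was over them, against 37.3% and 24.3% of all genes tested. The median log2 fold-change was -0.08 over the 8 genes and -0.09 over all genes tested.

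**Figure D1:**
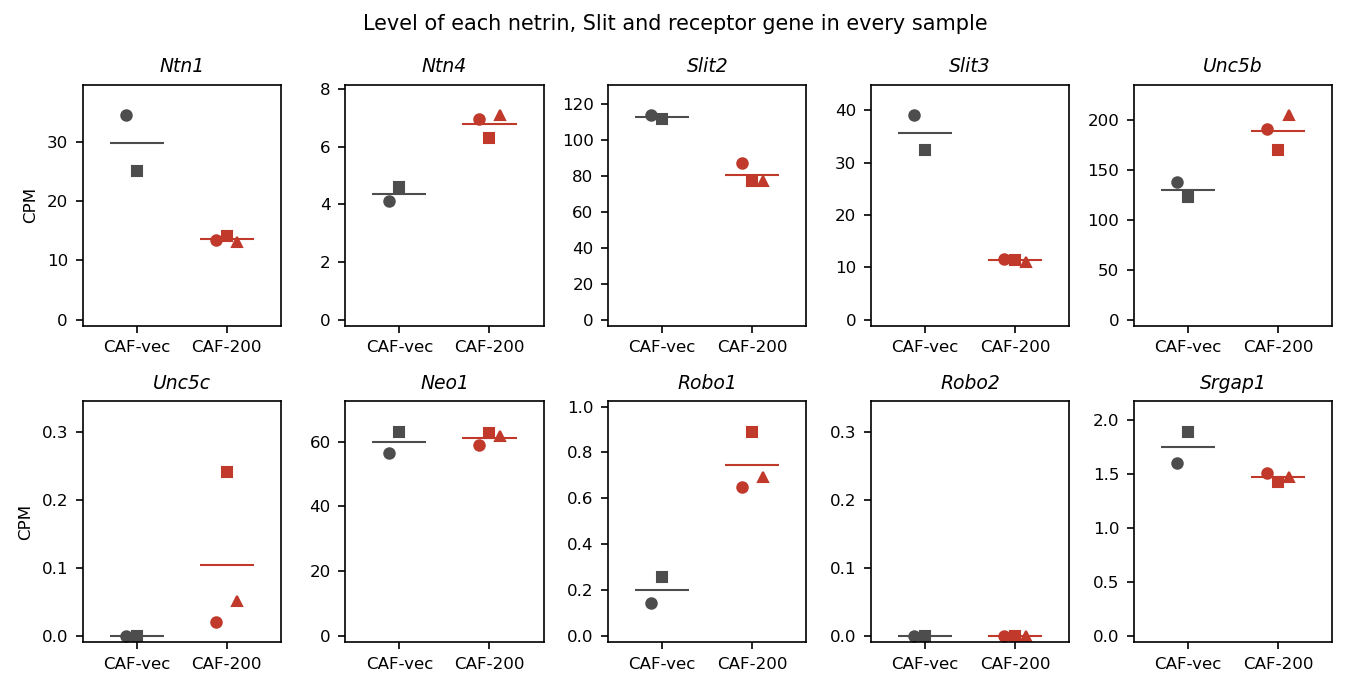
Level of each gene in CPM (vertical axis, linear, with a scale of its own in each panel) in the 2 CAF-vec samples (grey) and the 3 CAF-200 samples (red). Circles, squares and triangles are samples numbered 1, 2 and 3, and the lines are group means; *Slit3* and *Ntn1* lie far lower in CAF-200, *Neo1* overlaps, and *Robo2* is at 0 throughout.

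*Slit3* (ENSMUSG00000056427, chr11:35121224-35708507, plus strand), a Slit ligand made by many mesenchymal cells, had the largest log2 fold-change of the 8 genes on log2(CPM + 0.5). It was at 39.0 and 32.4 CPM in CAF-vec, against 11.6, 11.5 and 11.0 CPM in CAF-200. The 3 CAF-200 samples were nearly level with one another and all lay far below the lower CAF-vec sample. Its mean was 35.7 ± 4.72 CPM (SD, n = 2) in CAF-vec but 11.4 ± 0.305 CPM (SD, n = 3) in CAF-200. In the limma fit the log2 fold-change came to -1.60 ± 0.111 (standard error) at an adjusted *p* of 0.00194. This fall ranked 84 among the 12175 genes tested. Without CAF-vec 1 the log2 fold-change was -1.47 and without CAF-vec 2 it was -1.74, both still called. Without CAF-200 1, 2 or 3 the adjusted *p* was 0.0205 to 0.0256, above the threshold, as it was for almost every gene in those smaller fits, where at most 1 of the 12175 genes was called. The 3′-UTR of *Slit3* is 365 bases long and held no seed match, and among the 1178 genes tested with a 3′-UTR within 25% of that length 7.81% held one.

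*Slit2* (ENSMUSG00000031558, chr5:47983138-48307733, plus strand), the other Slit ligand expressed here, was at 114 and 111 CPM in CAF-vec, against 87.1, 76.9 and 76.9 CPM in CAF-200. Each CAF-200 sample lay below both CAF-vec samples, and the CAF-vec samples were close to each other. The log2 fold-change was -0.49 (standard error 0.0950), and the adjusted *p* of 0.0161 (limma) did not pass the threshold. *Slit2* carries the 2 matches printed above, for miR-200b and miR-429, at bases 629 and 751 of a 3492-base 3′-UTR. The first is followed by an A, which makes it the 1 match of 8 bases in the whole set. A seed match was present in 59.5% of the 1697 genes tested with a 3′-UTR of like length, so most 3′-UTRs as long as this one held at least 1. The log2 ratio of *Slit3* to *Slit2* was lower by 1.12 in CAF-200 than in CAF-vec (difference -1.12, exact permutation test, two-sided, *p* = 0.1), and 0.1 is the smallest *p* that 2 samples against 3 allow.

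*Slit1*, which encodes a Slit ligand found mainly in the nervous system, was at 0.0368 and 0.119 CPM in CAF-vec, against 0.0609 to 0.291 CPM in CAF-200, too low to be tested. Per kilobase of the longest coding transcript, the summed level of *Slit2* and *Slit3* was 18.9 and 17.4 CPM per kb in CAF-vec and 11.0, 9.92 and 9.83 CPM per kb in CAF-200. On that scale *Slit2* made up 60.5% and 64.4% of the sum in CAF-vec, and 79.8%, 77.8% and 78.6% in CAF-200. On that scale the sum was lower in every CAF-200 sample, and the portion of *Slit2* in it was larger. The sum was not tested, and *Slit2* by itself did not pass the threshold. The percentages depend on the transcript length taken. For *Slit2* all annotated exons come to 25.4 kb, against 9.96 kb for the longest coding transcript. Per kilobase of all annotated exons, the mean in CAF-vec was 4.43 CPM per kb for *Slit2* and 5.88 CPM per kb for *Slit3*. This was the opposite order.

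*Ntn1* (ENSMUSG00000020902, chr11:68209364-68400823, minus strand), which encodes netrin-1, the founding member of the family, was at 34.5 and 25.1 CPM in CAF-vec, against 13.5, 14.1 and 13.1 CPM in CAF-200. The CAF-vec samples differed from each other by more than any CAF-200 samples did, yet both were above all 3 of these. Its mean was 29.8 ± 6.60 CPM (SD, n = 2) in CAF-vec but 13.6 ± 0.483 CPM (SD, n = 3) in CAF-200. In the limma fit the log2 fold-change came to -1.09 ± 0.148 (standard error) at an adjusted *p* of 0.00679, which ranked 359 among the falls. This value lay just beyond the fold-change threshold, and several other settings ended the call. It was -0.87 without CAF-vec 1 and -0.99 after quantile normalization or after centring on each sample's median, while without CAF-vec 2 it was -1.31, and without CAF-200 1, 2 or 3 the adjusted *p* was 0.0392 to 0.0470. At a fold-change of about the same size, the adjusted *p* also missed the threshold with the replicate block (0.0247), with sample weights by group (0.0143) and without a filter on low values (0.0127). The miR-200a match printed above lies at base 3418 of its 3642-base 3′-UTR, and 60.1% of the 1603 genes tested with a 3′-UTR of like length held a match.

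*Ntn4* (ENSMUSG00000020019, chr10:93640681-93747207, plus strand) encodes netrin-4, which binds laminin and sits in basement membranes. It was at 4.13 and 4.61 CPM in CAF-vec, against 6.95, 6.31 and 7.10 CPM in CAF-200. Here the CAF-200 samples lay above both CAF-vec samples, the opposite order to *Ntn1*. The log2 fold-change was 0.58 (standard error 0.113), and the adjusted *p* of 0.0161 (limma) did not pass. The log2 ratio of *Ntn1* to *Ntn4* was 2.62 in CAF-vec and 0.95 in CAF-200 (difference -1.67, exact permutation test, two-sided, *p* = 0.1, the smallest possible). Since *Ntn1* was lower and *Ntn4* higher in every CAF-200 sample, their ratio had to separate the groups, and this test adds no support.

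Per kilobase, the summed level of *Ntn1* and *Ntn4* was 7.003 and 5.54 CPM per kb in CAF-vec and 4.20, 4.13 and 4.18 CPM per kb in CAF-200. *Ntn1* made up 83.8% and 77.2% of that sum in CAF-vec and 54.6%, 58.1% and 53.5% in CAF-200. *Ntn1* stayed above *Ntn4* in every sample on that scale, by 5.18 and 3.38 times in CAF-vec and by 1.204, 1.386 and 1.149 times in CAF-200. Of the other netrins, *Ntng1* was at 0 in all 5 samples, *Ntn5* was at most 0.0592 CPM, and *Ntn3* was at 0.452 and 0.619 CPM in CAF-vec, against 0.431 to 0.542 CPM in CAF-200, so its groups overlapped. *Ntng2*, which encodes the membrane-anchored netrin-G2, was at 2.19 and 2.80 CPM in CAF-vec, against 4.17 to 4.72 CPM in CAF-200 (limma log2 fold-change 0.74 with an adjusted *p* of 0.0145), which did not pass. Its mean per kilobase was 1.33 CPM per kb in CAF-vec and 2.39 CPM per kb in CAF-200, and it is not part of the sums above. Per kilobase of all annotated exons the latter was 1.13 CPM per kb, against 2.16 CPM per kb for *Ntn1*. *Ntng2* and *Ntn3* share 558 and 89 exonic bases with neighbours on the same strand, *6530402F18Rik* and *Tbc1d24*.

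**Figure D2:**
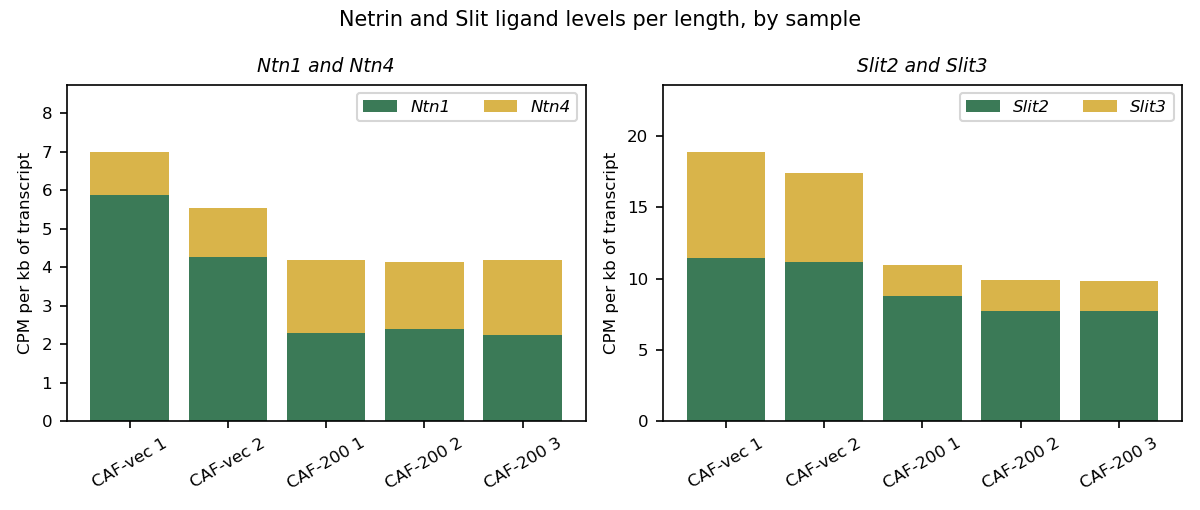
Summed level of *Ntn1* and *Ntn4* (left) and of *Slit2* and *Slit3* (right) in each sample, in CPM per kilobase of the longest coding transcript, with each gene's part as a coloured block. *Ntn1* takes 77.2% and 83.8% of the netrin bars in CAF-vec and 53.5% to 58.1% in CAF-200, and both sums are lower in every CAF-200 sample than in either CAF-vec sample.

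Among the 5 receptors of the set, *Unc5b* (ENSMUSG00000020099, chr10:60762593-60831581, minus strand) was the most abundant, both in CPM and per kilobase. It encodes a repulsive netrin receptor best known from endothelial cells. Its level was 138 and 123 CPM in CAF-vec and 192, 170.0 and 205 CPM in CAF-200. All 3 CAF-200 samples lay above both CAF-vec samples, although they spread over a wider range than those did. The log2 fold-change was 0.53 ± 0.118 (standard error) at an adjusted *p* of 0.0229 by limma, which did not pass. Without CAF-vec 1 it was 0.61 and without CAF-vec 2 it was 0.45. *Unc5b* has a 2615-base 3′-UTR without a seed match, whereas 50.8% of the 2094 genes tested with one of like length held a match.

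*Unc5c* (ENSMUSG00000059921, chr3:141465216-141834924, plus strand), which encodes a further repulsive netrin receptor, was listed at 0 in CAF-vec throughout, against 0.0206, 0.241 and 0.0519 CPM in CAF-200. These values are close to 0, with the highest in CAF-200 2, and were too low to be tested. It also shares 118 exonic bases with the antisense gene *Gm15688*. *Unc5a* was listed at 0 in CAF-vec and at 0.0103 to 0.111 CPM in CAF-200, *Unc5d* was at most 0.0106 CPM, and *Dcc*, the classical netrin-1 receptor of neurons, was at 0.126 and 0.0590 CPM in CAF-vec and never above 0.0203 CPM in CAF-200. Of *Dcc*, *Neo1* and the UNC5 genes, *Unc5b* and *Neo1* were thus those found above 0.5 CPM.

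*Neo1* (ENSMUSG00000032340, chr9:58874687-59036441, minus strand), which encodes neogenin, a receptor of netrins and of repulsive guidance molecules, was at 56.5 and 63.1 CPM in CAF-vec, against 58.9, 62.8 and 61.6 CPM in CAF-200. The CAF-200 samples all lay between the CAF-vec samples. The log2 fold-change was 0.03 ± 0.0909 (standard error) at an adjusted *p* of 0.795 by limma, and without CAF-vec 1 it was -0.05. The 3′-UTR of *Neo1* holds the match printed above, at base 763 of 2587. The log2 ratio of *Neo1* to *Unc5b* was -1.12 in CAF-vec and -1.62 in CAF-200 (difference -0.50, exact permutation test, two-sided, *p* = 0.1, the smallest possible). *Rgma* and *Rgmb*, ligands of neogenin, were at 19.1 to 24.8 and 17.7 to 25.4 CPM in CAF-vec, against 17.0 to 21.4 and 15.8 to 18.4 CPM in CAF-200, so the groups overlapped for both.

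Robo receptors were scarce. *Robo1* (ENSMUSG00000022883, chr16:72308306-73046095, plus strand) was at 0.144 and 0.259 CPM in CAF-vec, against 0.652, 0.891 and 0.694 CPM in CAF-200. The groups did not overlap, with a CAF-200 mean 3.70 times that of CAF-vec, although values this near 0 may have been adjusted further. The log2 fold-change was 0.83 ± 0.176 (standard error) at an adjusted *p* of 0.0202 by limma, which did not pass, and it was 1.503 with an added 0.1 CPM and 0.54 with an added 1 CPM, neither of them called. *Robo1* entered the test through its CAF-200 values alone, so it could only appear as a gene that differed in that direction. *Robo2* (ENSMUSG00000052516, chr16:73891839-74411825, minus strand) and *Robo4*, the endothelial Robo, were listed at 0 in all 5 samples. *Robo3* was at 0.0366 and 0.139 CPM in CAF-vec, against 0.143 to 0.321 CPM in CAF-200.

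*Srgap1* (ENSMUSG00000020121, chr10:121780991-122047315, minus strand), the Robo effector of the set, was at 1.598 and 1.89 CPM in CAF-vec, against 1.51, 1.42 and 1.47 CPM in CAF-200. The CAF-200 samples were lower than both CAF-vec samples by a small margin (limma log2 fold-change -0.19 with a standard error of 0.133 and an adjusted *p* of 0.318), which did not pass. *Srgap1* holds a match to each seed, at bases 3798 and 3993 of a 4407-base 3′-UTR, and shares 131 exonic bases with *Gm48804* on the same strand. Its relatives were more abundant. *Srgap2* was at 34.1 and 44.5 CPM in CAF-vec, against 39.0 to 41.3 CPM in CAF-200 (limma log2 fold-change 0.04 with an adjusted *p* of 0.846), and *Srgap3* was at 10.9 and 13.4 CPM in CAF-vec, against 16.8 to 20.2 CPM in CAF-200 (limma log2 fold-change 0.60 with an adjusted *p* of 0.0232).

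**Figure D3:**
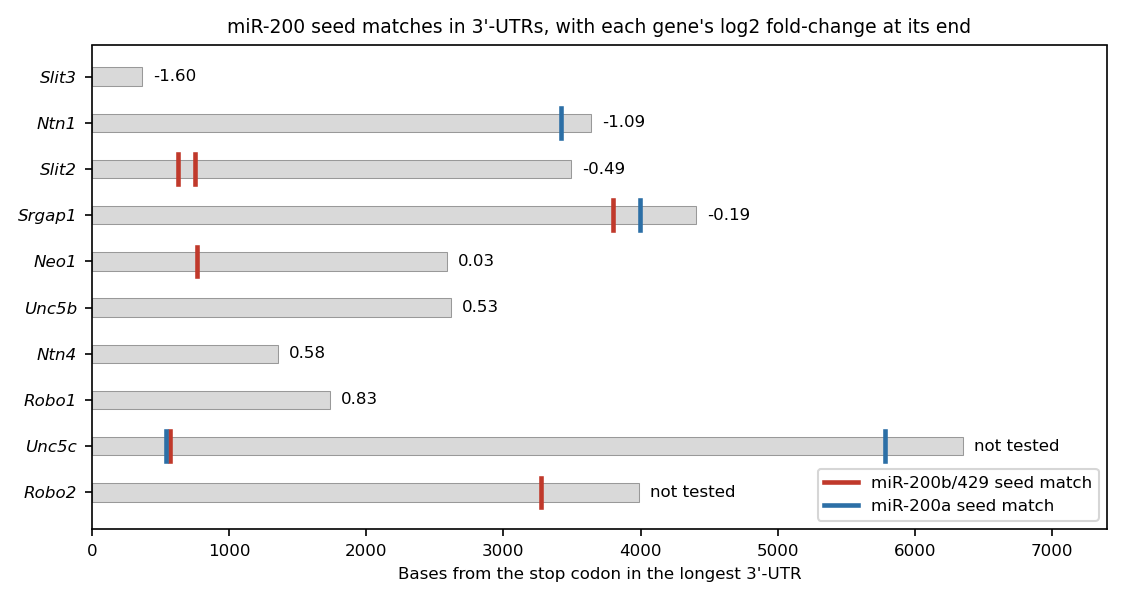
Grey bars give the length in bases of the longest annotated 3′-UTR of each gene, from the stop codon, and ticks mark seed matches of miR-200b and miR-429 (red) or of miR-200a (blue). The number at each bar's end is the log2 fold-change of CAF-200 against CAF-vec: *Slit3*, with the largest fall (-1.60), has the shortest 3′-UTR and no match, and *Neo1*, with a match, is at 0.03.

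Read along their 3′-UTRs, the 4 tested genes with a seed match had log2 fold-changes of -1.09 (*Ntn1*), -0.49 (*Slit2*), -0.19 (*Srgap1*) and 0.03 (*Neo1*). The 4 tested genes without a match had -1.60 (*Slit3*), 0.53 (*Unc5b*), 0.58 (*Ntn4*) and 0.83 (*Robo1*). *Robo1* could enter the test only with a positive sign, as described above. A match to bases 2 to 7 alone was present in 8 of the 10 genes, all but *Slit3* and *Unc5b*, and a match of 8 bases in *Slit2* alone. These matches describe the annotated sequence, and whether a miRNA binds there was not measured.

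Per kilobase, the order of the mean levels in CAF-vec was *Unc5b* (22.3 ± 1.82 CPM per kb, SD, n = 2), *Slit2* (11.3 ± 0.165), *Neo1* (8.10 ± 0.631), *Slit3* (6.83 ± 0.902), *Ntn1* (5.07 ± 1.12), *Ntn4* (1.20 ± 0.0927), *Srgap1* (0.224 ± 0.0265) and *Robo1* (0.0267 ± 0.0107). *Neo1* and *Slit3*, and *Slit3* and *Ntn1*, differed there by less than the sum of their SDs. In CAF-200 the order was *Unc5b* (32.2 ± 3.04 CPM per kb, SD, n = 3), *Neo1* (8.28 ± 0.267), *Slit2* (8.06 ± 0.589), *Ntn1* (2.31 ± 0.0823), *Slit3* (2.17 ± 0.0583), *Ntn4* (1.86 ± 0.115), *Srgap1* (0.189 ± 0.00562) and *Robo1* (0.0985 ± 0.0169). *Neo1* and *Slit2*, and *Ntn1* and *Slit3*, could not be separated by that measure. *Unc5b* led in both groups. The order in CAF-vec depends on the length taken: per kilobase of all annotated exons *Slit2* (4.43 CPM per kb) came after *Neo1* (6.86), *Slit3* (5.88) and *Ntn1* (4.75).

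A list of 52 other genes of these pathways gave the setting for the members, and 37 of them were tested. Of the 8 other ligands tested, *Flrt3* fell and *Flrt2* passed the adjusted *p* in the other direction. Of the 2 other receptors tested, *Lrrc4c* rose and *Dag1* passed the adjusted *p* with a lower level. Of the 27 effectors tested, *Trio* fell, *Fyn* passed the adjusted *p* alone, and the other 25 did not pass. In all, 2 of the 37 were called lower and 1 higher, against the 2.35% and 2.37% above. The adjusted *p* alone was passed by 4 lower and 2 higher genes, against 5.57% and 4.45% of all genes tested. The median log2 fold-change of the 37 genes was -0.07.

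*Trio*, a guanine nucleotide exchange factor downstream of DCC, was at 179 and 186 CPM in CAF-vec, against 63.1, 61.3 and 64.9 CPM in CAF-200. Both groups were tight and lay far apart, with a log2 fold-change of -1.52 ± 0.0815 (standard error) at an adjusted *p* of 0.00109 by limma. *Fyn*, a Src-family kinase used by netrin receptors, was at 54.6 and 51.2 CPM in CAF-vec, against 36.5, 33.7 and 33.0 CPM in CAF-200 (limma log2 fold-change -0.61 with an adjusted *p* of 0.00801), short of the fold-change threshold. *Dag1*, which encodes dystroglycan, a laminin receptor that also binds Slit, was at 147 and 139.9 CPM in CAF-vec, against 75.5, 83.5 and 75.2 CPM in CAF-200 (limma log2 fold-change -0.88 with an adjusted *p* of 0.00375). All 3 genes were lower in every CAF-200 sample than in either CAF-vec sample. With the replicate block and with sample weights, the adjusted *p* missed the threshold for *Fyn* (0.0583 and 0.0452) and for *Dag1* (0.0297 and 0.0179).

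The FLRT proteins are membrane ligands of the UNC5 receptors, and 2 of them passed the adjusted *p* with fold-changes of opposite sign. *Flrt2* was at 9.59 and 10.7 CPM in CAF-vec, against 17.8, 16.9 and 19.4 CPM in CAF-200 (limma log2 fold-change 0.80 with an adjusted *p* of 0.00642), which missed the threshold with the replicate block (0.0404) and with sample weights (0.0382). *Flrt3* was at 0.673 and 0.719 CPM in CAF-vec, against 0.0707, 0.102 and 0.0617 CPM in CAF-200 (limma log2 fold-change -1.05 with an adjusted *p* of 0.00827). *Lrrc4c*, whose product binds netrin-G1, was at 0.325 and 0.289 CPM in CAF-vec, against 3.16, 2.79 and 3.10 CPM in CAF-200 (limma log2 fold-change 2.12 with an adjusted *p* of 0.00145), while *Ntng1*, the gene of that partner, was at 0 throughout. The value of *Flrt3* was -2.17 with 0.1 CPM added and -0.65 with 1 CPM added, and it was no longer called with 1 CPM added, after centring (-0.95), with the replicate block (adjusted *p* of 0.0443) or with sample weights (0.0976). *Flrt3* and *Lrrc4c* each reached 0.5 CPM in 1 group only, and so could enter the test only as genes that differed in that direction. Without CAF-200 1, 2 or 3 none of the 37 genes was called (limma), while 7 or 8 lower and 6 higher genes had an unadjusted *p* under 0.05, as did 3821 to 4065 of all 12175 genes. Without CAF-vec 1 only *Trio* was called lower, and without CAF-vec 2 the genes called lower numbered 4, in a fit where those called lower over all 12175 genes went from 286 to 955.

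**Figure D4:**
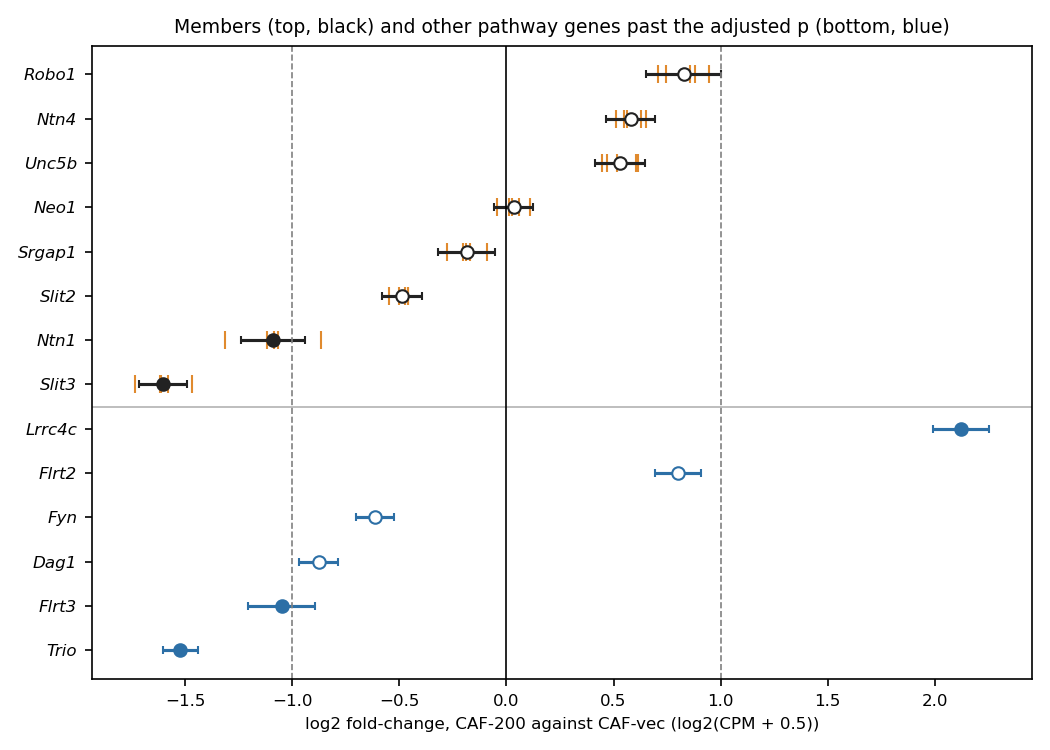
Log2 fold-change of CAF-200 against CAF-vec on log2(CPM + 0.5) (horizontal axis) for the 8 tested genes of the set (black, top) and the 6 other pathway genes past the adjusted *p* (blue, bottom), with standard errors as bars. Filled points pass both thresholds (dashed lines at -1 and 1), and orange ticks are the values with each sample left out in turn, which for *Ntn1* run from -1.31 to -0.87 and cross the dashed line.

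Markers of other cell types were also compared. The summed level of 5 pericyte and smooth muscle markers was 102 to 134 CPM in CAF-vec, against 685 to 738 CPM in CAF-200, and 2 of them, *Acta2* and *Cnn1*, were called higher, while *Myh11* and *Rgs5* were under 0.1 CPM. Most of that sum was *Acta2* (means of 109 CPM in CAF-vec and 674 CPM in CAF-200), and the groups overlapped for the fifth marker, *Cspg4* (log2 fold-change -0.41). *Acta2* encodes α-SMA, which the paper describes as a marker associated with myofibroblasts. The paper reports less α-SMA with miR-200, by staining, the opposite direction to the *Acta2* RNA here. The summed level of 3 mesothelial markers was 5.92 to 6.98 CPM in CAF-vec, against 1.11 to 1.62 CPM in CAF-200, with *Msln* called lower. That of 5 leukocyte markers was 3.36 to 7.004 CPM and 9.91 to 10.5 CPM, with *Lyz2* called higher, *Adgre1* and *Cd3e* at 0 and *Ptprc* at most 0.0404 CPM. The groups overlapped for the fifth of these, *Cd68* (2.25 and 5.01 CPM in CAF-vec, against 2.39 to 3.54 CPM in CAF-200). The sum of 7 endothelial markers was 0.497 to 1.06 CPM and 1.22 to 1.70 CPM, with *Tie1* and *Emcn* at 0. Most of it in CAF-200 was *Egfl7*, at 0 and 0.330 CPM in CAF-vec, against 1.47, 1.19 and 0.718 CPM in CAF-200. Its log2 fold-change was 1.31 with an adjusted *p* of 0.0270 by limma, which did not pass. *Egfl7* reached 0.5 CPM in CAF-200 alone and so could appear only as higher. Its log2 fold-change was 2.51 with 0.1 CPM added and 0.87 with 1 CPM added. *Cdh5* was also higher in every CAF-200 sample, at no more than 0.122 CPM, and the groups overlapped for *Tek*, *Pecam1* and *Vwf*, whose means were lower in CAF-200. The sum of 3 Schwann cell markers was 2.41 to 3.23 CPM and 1.97 to 2.36 CPM, with *Sox10* at 0. The sum of the 10 fibroblast markers was 7457 to 14150 CPM in CAF-vec, against 6609 to 7302 CPM in CAF-200. Of these, *Dcn*, *Lum* and *Thy1* were called higher, while *Col1a1*, *Col1a2* and *Pdgfrb* were lower in every CAF-200 sample (log2 fold-changes of -0.91, -0.75 and -0.25) and *Col3a1* was higher in every one (1.02), all 4 without passing the test. These levels moved with the same groups as *Slit3*, *Ntn1* and *Unc5b*, and their part in those results was not tested.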

How the data were processed

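RNA from 2 CAF-vec and 3 CAF-200 samples had been sequenced as stranded mRNA libraries with paired-end reads. The authors deposited 1 table of normalized CPM values named for TMM, in which each column summed to between 999956 and 1000111. The submitters' processing notes name FastQC, cutadapt, Trimmomatic, STAR, RSEM and edgeR, and GRCm38 (mm10), without versions. Depth is unknown: of the values from 0.005 to 0.2 CPM, 34.9% to 92.1% per sample lay within 0.05 steps of a whole multiple of a fitted step, so whole reads were not recovered and no count test was run. No gene was at 0 in only some of the CAF-200 samples. All 5 columns were used.

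GENCODE M21 (GRCm38) gave a name to 21795 of 21835 genes, and seed matches came from its transcripts and RefSeq miRNAs; *Hjv* was matched under its older symbol. Lengths are those of the longest protein-coding transcript with a complete 3′ end. Values were tested with limma 3.58.1 (lmFit, eBayes with a variance trend) in R 4.3.3, and the fit was tested on simulated data. Those data gave each gene the same spread in both groups, so the unequal spread seen here was not simulated. Figures and tables used Python 3.11.15, pandas 2.3.3, numpy 2.4.6 and matplotlib 3.10.9.

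The members and gene lists were chosen with earlier results of these data known. Named are all members, genes of the pathway list past an adjusted *p* of 0.01, *Zeb1*, *Zeb2*, defining markers and, chosen after their values were seen, *Slit1*, *Robo3*, *Robo4*, *Rgma*, *Rgmb*, *Srgap2*, *Srgap3* and the other netrins, UNC5 receptors and *Dcc*. Alternatives were the pseudocount, filter, scaling, variance model, sample weights, replicate block, thresholds and each sample left out.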

Additional observations from a re-analysis of the deposited data

How the results depend on the processing

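The limits of these results are the 2 CAF-vec samples and the unknown depth, which leaves *Unc5c*, *Robo2* and *Slit1* without a usable level. EdgeR and DESeq2 were not run, because whole reads were not recovered. Why the counts below differ between settings was not tested. The 2 members called lower became 1 without a filter on low values, under quantile normalization or median centring, with sample weights by group and with the replicate number as a block (*Slit3* in each), and 0 to 2 with each sample left out, where 3 passed an unadjusted *p* under 0.05 from limma, as did 3821 to 8273 of all 12175 genes. The 2 other pathway genes called lower became 1 with 1 CPM added, with at least 1 CPM in every sample, after centring, with sample weights and with the replicate block, 4 at a log2 fold-change beyond 0.5, and 0 to 4 with each sample left out. The 1 called higher became 0 with at least 1 CPM in every sample, 2 beyond 0.5, and 0 to 1 with each sample left out. A seed match of 8 bases was held by 1 member and not 6. The log2 fold-change of *Neo1* was -0.046 without CAF-vec replicate 1, and -0.046 to 0.11 with each sample left out. Leaving out a CAF-vec sample leaves a lone sample, assumed to vary like the CAF-200 samples. Over all genes, 286 were called lower and 289 higher, against 228 and 365 after centring, 60 and 91 with sample weights and 70 and 101 with the replicate block. With only 2 shared replicate numbers, the samples were not taken as pairs: their deviations from the group means correlated at 0.249 for number 1 and 0.134 for number 2, and at 0.119 for CAF-vec 2 with the differently numbered CAF-200 3. With 2 CAF-vec samples, the values for CAF-vec 1 and CAF-vec 2 are equal with opposite signs. *Ntn4*, *Unc5b*, *Slit2*, *Robo1* and *Srgap1* kept their direction and were not called under any alternative that tested them, although *Robo1* passed the fold-change threshold with 0.1 CPM added, and the adjusted *p* alone was passed by *Unc5b* after quantile normalization (0.00973), by *Slit2* and *Unc5b* without CAF-vec 1 (0.00436 and 0.00288), and by *Slit2*, *Unc5b*, *Ntn4* and *Robo1* without CAF-vec 2 (0.00191, 0.00706, 0.00250 and 0.00866).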
